A study of Mus musculus with 6 samples.

Results

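Transcripts of 6 genes of the galectin system were followed through angiotensin II (Ang II) infusion of the mouse heart: the galectins Lgals1, Lgals3, Lgals4, Lgals8 and Lgals9, and Lgals3bp, which encodes a secreted glycoprotein that galectins bind. They were taken by gene symbol, and all 6 were found among the 22556 genes of the deposited table. Hearts came from WT mice given Ang II, a peptide hormone that raises blood pressure, under the skin from osmotic minipumps at 1000 ng per kg per min. There were 2 libraries listed at 0 days of infusion, used as controls, 2 at 7 days and 2 at 28 days, 6 libraries in all. The same text, with this dose, stands in the labels of every library, those of 0 days included. The labels give neither the strain, age or sex of the mice, nor what the control mice received, nor whether each library came from its own animal. The p-values below set differences between groups against the spread between libraries of the same group, and this spread may be only technical.

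Galectins are small lectins that bind galactose-containing glycans on proteins and lipids of the cell surface, the matrix and the inside of damaged vesicles. They are grouped by build: prototype galectins carry a single carbohydrate-binding domain and form dimers, galectin-3 joins such a domain to a flexible tail through which it oligomerises, and tandem-repeat galectins hold a pair of different domains on the same chain. In the heart, galectin-3 is best known as a product of macrophages and as a circulating marker of fibrosis and heart failure, and galectin-1 as a product of stromal, vascular and muscle cells. Lgals9 and Lgals3bp are widely known as genes that interferons raise.

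The 6 genes differed in which of their changes passed, as defined below. Lgals1, Lgals3 and Lgals9 rose at 7 days, and all of them fell again at 28 days against 7 days. Of these calls, the rise of Lgals9 and the fall of Lgals1 lay close to the threshold. They passed in only 6 and 3 of 15 alternative fits, in that order. Lgals4 fell at 7 days and was still lower than in the controls at 28 days, a call kept in 11 of 15 alternative fits. The fall of Lgals9 was kept in 8, and the rise of Lgals1 and the fall of Lgals3 in 12 each. Among calls of the 6 genes, only the 7 day calls of Lgals3 and Lgals4 passed in all 15. Lgals3bp lay higher at 7 days without passing and fell at 28 days against 7 days, and Lgals8 passed in no comparison. Levels are given in RPKM, a read density that corrects for transcript length and sequencing depth, so that levels of different genes can be set side by side. Changes are differences of log2(RPKM + 0.5) between group means from limma with Benjamini-Hochberg adjustment over the 11096 genes whose RPKM averaged 1 or more across libraries, and a gene passed at an adjusted p under 0.05. At 7 days against control, 3 of the 6 members were higher and 1 was lower, where 15.4% of all tested genes were called, 13.2% higher and 2.27% lower. Without adjustment 4 members were higher and 1 was lower there, where 26.5% of all tested genes were higher and 5.66% lower. At 28 days against control, 0 members were higher and 1 was lower by limma, where 4.41% of all tested genes were called, 2.87% higher and 1.54% lower. Without adjustment, 1 member was higher and 2 were lower there at p under 0.05, where 12.8% of all tested genes were higher and 9.32% lower. At 28 days against 7 days, 0 members were higher and 4 were lower by limma, where 4.67% of all tested genes were called, 0.406% higher and 4.26% lower. Without adjustment, 1 member was higher and 5 were lower in that comparison, where 3% of all tested genes were higher and 19.1% lower. Counted by libraries that do not overlap, 5 members lay higher and 1 lower at 7 days, where 48.6% of all tested genes lay higher and 16.1% lower. At 28 days 1 lay higher and 3 lower than the controls, against 28.8% and 25.8% of all tested genes, and at 28 against 7 days 1 lay higher and 5 lower, against 9.12% and 41.2%. These counts describe the members and set the list apart from no other. The median change of the members was 0.64 at 7 days, -0.32 at 28 days and -0.81 at 28 against 7 days, beside 0.14, 0.01 and -0.12 for all tested genes.

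Each library had between 15636 and 16036 genes with a value above 0, and depth relative to control replicate 1, from the most common ratio of low values, lay between 0.889 and 1.16. The share of calls that were higher depends on scaling. At 7 days it was 85.3% in the deposited RPKM, 61.2% once libraries were scaled by median ratios and 56.9% once they were quantile normalized. At 28 against 7 days it was 8.69%, 23.2% and 20.7% in the same order. Scaling moved the median of all tested genes at 7 days to -0.02 with median ratios and to -0.04 with quantiles. The heart origin was checked on 8 cardiomyocyte markers, whose summed RPKM lay between 34010 and 45770 in every library. Atrial markers (Nppa, Myl7, Myl4, Sln and Bmp10) summed to 320 RPKM in control replicate 1 and 3017 RPKM in control replicate 2, so the control libraries also differed in atrial transcripts. The infused groups differed too. Relative to the control mean, the log2 median of the 4 tested atrial markers was -1.69 and -1.35 at 7 days and 1.07 and 0.125 at 28 days. Of these 4, 0 passed in limma at 28 against 7 days, at a median change of 2.07. The part of atrial transcripts in the galectin results was not tested. For calls of the 6 members and for counts of the lists below, values without 1 library are in general given where they end a call or move a count by over 1.5 times. An exception are the 7 day counts of the smooth muscle, neutrophil and interferon lists. They also moved when a 28 day library was left out, and those values are not given.

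**Figure D1:**
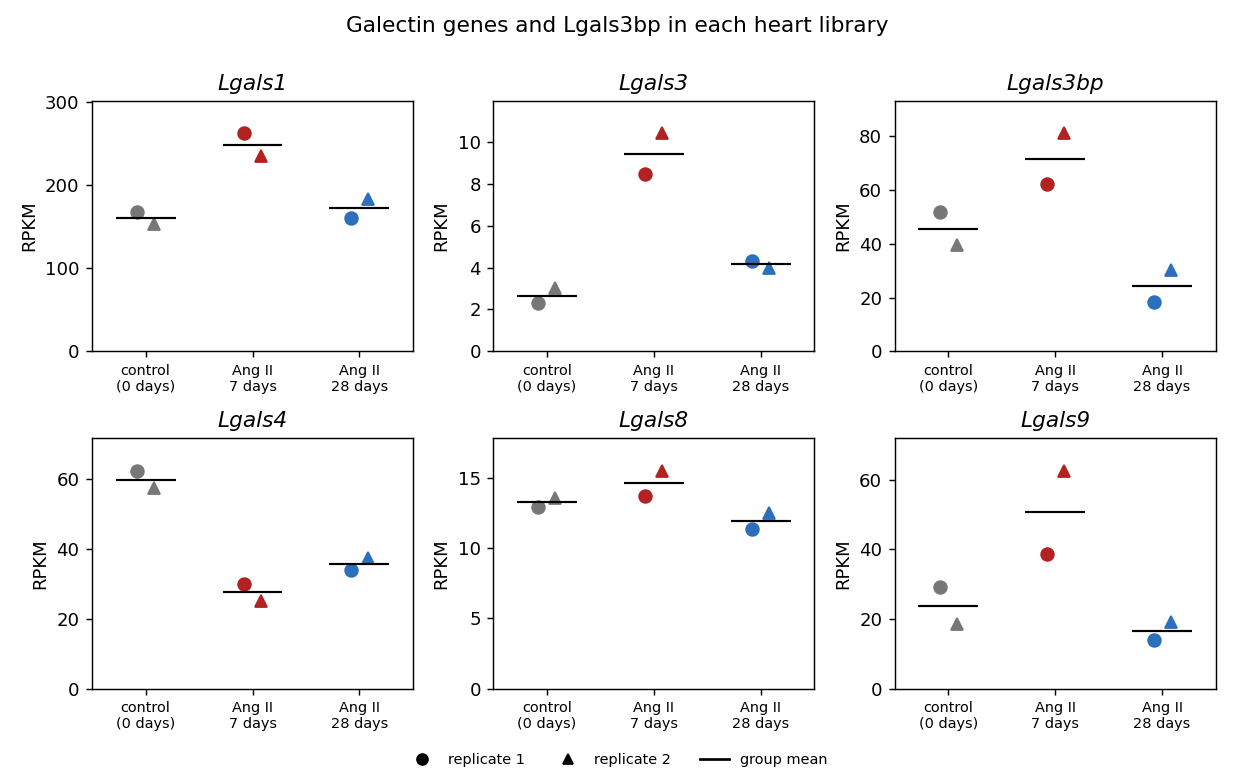
Level of the 6 genes in RPKM (vertical axes, each from 0) in each library, by group (horizontal axes). Points are libraries, a circle for replicate 1 and a triangle for replicate 2, and bars are group means. Lgals1, Lgals3 and Lgals9 are highest at 7 days, while both Lgals4 values at 7 and at 28 days lie under the controls.

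Lgals1, which encodes the prototype galectin-1, was the most abundant galectin in every library. It was listed at 168 and 153 RPKM in the controls, at 263 and 235 RPKM at 7 days, and at 161 and 184 RPKM at 28 days. Both 7 day libraries lay above all the others, and the 28 day libraries overlapped the controls. Lgals1 averaged 249 ± 19.4 RPKM at 7 days and 161 ± 10.4 RPKM in the controls (SD, n = 2 each), a 1.55-fold rise (log2 change 0.63, SE 0.12; limma adjusted p = 0.0144). It lay 0.50 above the median change of all genes. The call was lost when control replicate 1 was left out (limma adjusted p = 0.0845), and likewise for control replicate 2 (limma adjusted p = 0.12) or 7 day replicate 1 (limma adjusted p = 0.0563), at log2 changes between 0.55 and 0.70. At 28 days Lgals1 averaged 172 ± 16.2 RPKM, a log2 change against the controls of 0.10 (95% interval -0.17 to 0.37; limma adjusted p = 0.66), which was -0.02 after quantile normalization. Against 7 days it fell by 0.53 on the log2 scale (limma adjusted p = 0.0489), a call kept in 3 of 15 alternatives, with adjusted p from 0.0429 to 0.151. Of the 6 libraries, leaving out any but 28 day replicate 2 lost that call.

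Lgals3, which encodes galectin-3, was the least abundant of the 6 genes in every group and had the largest rise among them at 7 days. It was listed at 2.28 and 3.01 RPKM in the controls, at 8.45 and 10.4 RPKM at 7 days, and at 4.33 and 3.999 RPKM at 28 days. The 3 groups did not overlap, with the 28 day libraries between the controls and the 7 day libraries. Lgals3 averaged 9.44 ± 1.39 RPKM at 7 days and 2.65 ± 0.514 RPKM in the controls (SD, n = 2 each), 3.16-fold on the fitted scale (log2 change 1.66, SE 0.16; limma adjusted p = 0.00165). Because of the added 0.5, this fold understates the change of so low a gene. The rise passed in all 15 alternatives run for it, with adjusted p from 0.0016 to 0.0231. At 28 days Lgals3 averaged 4.16 ± 0.233 RPKM, a log2 change against the controls of 0.58 (95% interval 0.20 to 0.95) that did not pass (limma adjusted p = 0.0944) and passed in 0 of 15 alternatives. Against 7 days it fell by 1.08 on the log2 scale (limma adjusted p = 0.0163). That call was lost without 7 day replicate 1 (limma adjusted p = 0.0587), without 7 day replicate 2 (limma adjusted p = 0.137) and without a filter on low values (limma adjusted p = 0.056).

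Macrophages and fibroblasts are cell types known to make galectin-3 and galectin-1. Most of their markers moved in the direction of both genes at 7 days and at 28 against 7 days. At 28 days against control the median change was -0.21 for the macrophage list and 0.26 for the fibroblast list, beside 0.58 for Lgals3 and 0.10 for Lgals1. Of 19 tested monocyte and macrophage markers, a list that leaves out the galectins, 15 were higher and 0 lower at 7 days, and 0 were higher and 13 lower at 28 against 7 days by limma. Without adjustment 16 were higher and 0 lower at 7 days, and 0 were higher and 16 lower at 28 against 7 days. Of all tested genes, limma called 13.2% higher and 2.27% lower at 7 days, and 0.406% higher and 4.26% lower at 28 against 7 days. The shares without adjustment were 26.5% higher and 5.66% lower at 7 days, and 3% higher and 19.1% lower at 28 against 7 days. The 15 higher at 7 days became 6 without control replicate 1, 6 without control replicate 2, 9 without 7 day replicate 1 and 4 without 7 day replicate 2. The 13 lower at 28 against 7 days became 7 without 7 day replicate 1 and 3 without 7 day replicate 2. Their summed RPKM was 451 and 456 in the controls, 755 and 856 at 7 days, and 404 and 304 at 28 days. At 28 days the macrophage sum lay under both controls while Lgals3 lay above them. Ccr2, the chemokine receptor of recruited monocytes, averaged 3.56 ± 0.0243 RPKM at 7 days and 0.833 ± 0.0927 RPKM in the controls (SD, n = 2 each; log2 change 1.61; limma adjusted p = 0.00172). Cx3cr1 and the lysosomal protease gene Ctss rose by 1.51 and 1.36 on the log2 scale. Of 12 fibroblast markers, 8 were higher and 0 lower at 7 days, and 9 were higher without adjustment. With any of the 6 libraries left out, 8 were called higher at 7 days. Postn, which encodes the matrix protein periostin, averaged 148 ± 0.361 RPKM at 7 days and 13.7 ± 0.628 RPKM in the controls (SD, n = 2 each; log2 change 3.38; limma adjusted p = 2.66e-05), and the collagen genes Col3a1 and Col1a1 rose by 2.60 and 2.53. The summed RPKM of the fibroblast list was between 550 and 561 in the controls, between 1264 and 1361 at 7 days, and between 596 and 647 at 28 days. Neutrophil markers summed to 2.16 and 1.23 RPKM in the controls, 6.66 and 12.5 RPKM at 7 days and 31.6 and 118 RPKM at 28 days, with Mpo and Elane at 0 in every library. The part of any of these cells in the galectin levels was not tested, and in bulk heart RNA more cells of a type cannot be told apart from more RNA per cell.

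The 3 tested genes whose profile over the 6 libraries lay nearest to that of Lgals3, by Euclidean distance between centred log2(RPKM + 0.5) values over 10325 candidates, were Adamts2, Emp1 and Ttc9. Adamts2, which encodes the main protease that trims the procollagen amino end, lay at a distance of 0.179. It was listed at 3.11 and 3.40 RPKM in the controls, 10.4 and 13.5 RPKM at 7 days, and 5.28 and 5.01 RPKM at 28 days. Emp1, a membrane protein gene, lay at 0.227. Nearest to Lgals1 were Ifitm2, at 0.118, Anxa4, which encodes annexin A4, at 0.147, and Dpagt1, the enzyme that starts N-glycan assembly, at 0.154. These distances describe a ranking over 6 libraries and carry no test.

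Lgals4, which encodes the tandem-repeat galectin-4, best known from gut epithelium, moved the other way. It was listed at 62.4 and 57.3 RPKM in the controls, at 30.01 and 25.2 RPKM at 7 days, and at 33.9 and 37.4 RPKM at 28 days. All 4 libraries of infused hearts lay under both controls, and the 28 day libraries lay above the 7 day ones. Lgals4 averaged 27.6 ± 3.40 RPKM at 7 days and 59.9 ± 3.61 RPKM in the controls (SD, n = 2 each), 0.464 of the control level (log2 change -1.11, SE 0.12; limma adjusted p = 0.00261). It lay at -1.24 relative to the median change of all genes. This fall passed in all 15 alternatives run for it, at log2 changes from -1.29 to -0.98 and adjusted p from 0.00159 to 0.0296. At 28 days it averaged 35.7 ± 2.47 RPKM, and fell by 0.74 on the log2 scale against the controls (SE 0.12; limma adjusted p = 0.0244). The 28 day call was lost when control replicate 1 was left out (limma adjusted p = 0.216), and likewise for control replicate 2 (limma adjusted p = 0.104) or 28 day replicate 1 (limma adjusted p = 0.0558), and was lost without a filter on low values (limma adjusted p = 0.0734). The change at 28 against 7 days was 0.37 (95% interval 0.08 to 0.65) and did not pass (limma adjusted p = 0.141).

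Epithelial markers were near 0 in the same libraries. Of 9 markers of gut and other epithelium, 0 reached the mean of 1 RPKM, and they summed to between 0.71 and 2.5 RPKM per library. The intestinal genes Vil1 and Cdh17 reached at most 0.114 and 0.02 RPKM, and Cdx2, a transcription factor of the gut, was at 0 in every library. Lgals4 lay at least at 25.2 RPKM in each of them. Of 8 cardiomyocyte markers tested, 0 passed at 7 days in limma, where 13.2% of all tested genes were higher and 2.27% lower. Without adjustment 1 was higher and 1 lower, where 26.5% of all tested genes were higher and 5.66% lower. Calls appeared there once a 7 day library was left out, lower without replicate 1 and higher without replicate 2. At 28 days against control 1 marker was higher by limma, a call that ended when any control or 28 day library was left out. Lgals6, a close copy of Lgals4 that some mouse strains carry, was listed at 0 in all 6 libraries, so how reads shared by both copies were assigned cannot be told from the table. Nearest to Lgals4 in profile were Clcn1, which encodes a muscle chloride channel, at a distance of 0.252, Cry2, a repressor of the circadian clock, at 0.259, and Zfp612, at 0.279. Cry2 was listed at 11.7 and 9.41 RPKM in the controls, 4.94 and 4.10 RPKM at 7 days, and 6.19 and 5.45 RPKM at 28 days. The labels do not give the time of day at which hearts were taken.

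Lgals9, which encodes the tandem-repeat galectin-9, a ligand of the immune receptor TIM-3, had the largest residual SD of the 5 galectins on the log2 scale, at 0.288. It was listed at 29.2 and 18.5 RPKM in the controls, at 38.6 and 62.6 RPKM at 7 days, and at 14.1 and 19.1 RPKM at 28 days. The 7 day libraries lay above all the others, and the 28 day libraries overlapped the controls. Lgals9 averaged 50.6 ± 17.0 RPKM at 7 days and 23.8 ± 7.56 RPKM in the controls (SD, n = 2 each), a log2 change of 1.06 (SE 0.29; limma adjusted p = 0.0485). This rise sat at the threshold. It passed in 6 of 15 alternatives, with adjusted p from 0.0421 to 0.226, and was lost without control replicate 1 (limma adjusted p = 0.0664), control replicate 2 (0.225), 7 day replicate 1 (0.0525) or 7 day replicate 2 (0.226). It was also lost after median ratio scaling (limma adjusted p = 0.0951) and with a replicate block (limma adjusted p = 0.0647). At 28 days Lgals9 averaged 16.6 ± 3.57 RPKM, a log2 change against the controls of -0.49 (95% interval -1.17 to 0.19; limma adjusted p = 0.36). Against 7 days it fell by 1.56 on the log2 scale (SE 0.29; limma adjusted p = 0.0321), which passed in 8 of 15 alternatives and not with a replicate block (limma adjusted p = 0.0503). The change was -1.90 without 7 day replicate 1 and -1.21 without 7 day replicate 2, and passed in neither (limma adjusted p = 0.0606 and 0.186), nor without 28 day replicate 1 (limma adjusted p = 0.114).

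Lgals3bp, the secreted partner of galectin-3, had the same higher replicate as Lgals9 in every group. Its level was listed at 51.7 and 39.6 RPKM in the controls, at 62.2 and 81.2 RPKM at 7 days, and at 18.2 and 30.2 RPKM at 28 days. The 3 groups did not overlap, with the 28 day libraries lowest. At 7 days it averaged 71.7 ± 13.4 RPKM, beside 45.7 ± 8.55 RPKM in the controls (SD, n = 2 each), a log2 change of 0.65 (95% interval 0.05 to 1.24) that missed the threshold (limma adjusted p = 0.129). The change passed in 3 of 15 alternatives, among them a fit of only the 2 groups compared (limma adjusted p = 0.0454), at the same log2 change. At 28 days it averaged 24.2 ± 8.48 RPKM, a log2 change of -0.94 (95% interval -1.53 to -0.34) that did not pass (limma adjusted p = 0.0885) and did without 28 day replicate 2 (log2 change -1.29; limma adjusted p = 0.0319). Against 7 days it fell by 1.58 on the log2 scale, to 0.334 of the 7 day level (SE 0.25; limma adjusted p = 0.0212). That call was lost without 7 day replicate 1 (limma adjusted p = 0.0745), without 7 day replicate 2 (limma adjusted p = 0.162) and without a filter on low values (limma adjusted p = 0.0724).

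Interferon response genes had the same higher replicate in each group. For Lgals9 and Lgals3bp the higher library was replicate 1 in the controls and replicate 2 at 7 and at 28 days. All 24 tested genes of an interferon response list, which holds neither of them, had the same higher library in all 3 groups. So did 14.1% of all tested genes, 4 of 8 endothelial markers and 1 of the 19 macrophage markers. In the other lists compared the share lay between 0% for cardiomyocyte and atrial markers and 28.6% for smooth muscle and pericyte markers. The summed RPKM of the list was 553 and 339 in the controls, 378 and 535 at 7 days, and 126 and 215.5 at 28 days. At 7 days 1 of the 24 was higher and 0 lower by limma, where 13.2% of all tested genes were higher and 2.27% lower. Without adjustment 2 of the 24 were higher and 2 lower, where 26.5% of all tested genes were higher and 5.66% lower. The higher gene was the chemokine gene Cxcl10 (log2 change 1.49; limma adjusted p = 0.0133), a call lost without control replicate 1 (limma adjusted p = 0.066), control replicate 2 (0.0714) or 7 day replicate 2 (0.0998). At 28 days 0 were higher and 7 were lower than in the controls, and 0 were higher and 21 lower without adjustment. Of all tested genes, 1.54% were lower there by limma and 9.32% without adjustment. The 7 lower became 0 without control replicate 1 (17 without adjustment), 4 without control replicate 2, 3 without either 7 day library, 2 without 28 day replicate 1 and 11 without 28 day replicate 2. At 28 against 7 days 0 of the list were higher and 12 lower, among them Oas1a, which senses double-stranded RNA, at -1.93 (log2). Without adjustment 0 were higher and 22 lower. Of all tested genes, 4.26% were lower in that comparison by limma and 19.1% without adjustment. The 12 lower became 1 without 7 day replicate 1, 0 without 7 day replicate 2 (15 without adjustment) and 1 without 28 day replicate 1. Oas1a was lost without each of these, and without 28 day replicate 2 (limma adjusted p = 0.0551). The median change of the list was -0.01 at 7 days and -1.38 at 28 days, beside 1.06 and -0.49 for Lgals9 and 0.65 and -0.94 for Lgals3bp. Nearest to Lgals3bp in profile were Mx1, Ifi47 and Phf11, at distances of 0.26, 0.363 and 0.391, and nearest to Lgals9 were Ifitm3, Oas1g and Ly6e, at 0.273, 0.398 and 0.414. Mx1, an antiviral GTPase of the interferon list, was listed at 1.90 and 1.01 RPKM in the controls, 2.18 and 3.33 RPKM at 7 days, and 0.271 and 0.755 RPKM at 28 days. The added 0.5 shrinks the swings of so low a gene, and its distance to the far more abundant Lgals3bp is smaller for that reason. Lgals3bp and Lgals9 themselves lay 0.611 apart. What set the library order was not tested.

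**Figure D2:**
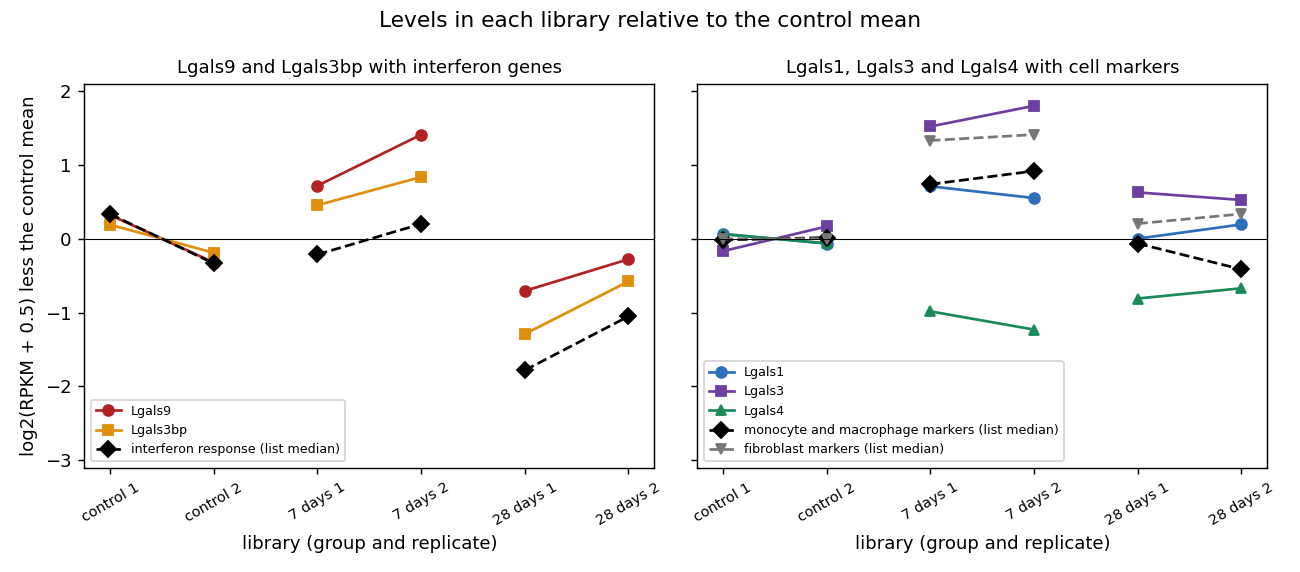
Level in each library as log2(RPKM + 0.5) less the mean of the controls (vertical axes), for Lgals9 and Lgals3bp with the median of 24 interferon response genes (left) and for Lgals1, Lgals3 and Lgals4 with the medians of 19 macrophage and 12 fibroblast markers (right). Lines join the replicates of a group, and in the left panel all series are higher in control replicate 1, in 7 day replicate 2 and in 28 day replicate 2.

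The promoters of Lgals9 and Lgals3bp are shown because both genes are known interferon targets and had the same higher replicate in each group as the interferon response list. Promoter sequences of RefSeq on GRCm38.p6, 300 bases long and most of them before the gene start, were found for 5 of the 6 members and not used for Lgals1. The core of the interferon-stimulated response element, taken as 2 copies of GAAA with any 2 bases between them, was searched on both strands, a choice made after the levels were seen. It had 2 matches in Lgals9, both on the strand opposite to the gene, and 0 in Lgals3bp, Lgals3, Lgals4 and Lgals8. Only exact matches were counted, so sites that differ from the core by a letter or in spacing are not among them. Of all 32851 promoters of this length, 3.44% held at least 1 match. The cores of the interferon-gamma activated site (TTCNNNGAA), the AP-1 site (TGANTCA), the TATA box (TATAAA) and a 10-base NF-kB site, searched in the same way, had no match in any of the 5 windows. Of all promoters, 8.3%, 7.81%, 13.6% and 0.411% hold them, in that order. No matches overlapped. Both sequences below are written 5′ to 3′ on the gene's strand, with matches to the interferon element, read on the opposite strand, in capitals. A match is a run of letters and does not show binding.
Lgals9 promoter (GRCm38.p6, chr11:78984875-78985174, minus strand): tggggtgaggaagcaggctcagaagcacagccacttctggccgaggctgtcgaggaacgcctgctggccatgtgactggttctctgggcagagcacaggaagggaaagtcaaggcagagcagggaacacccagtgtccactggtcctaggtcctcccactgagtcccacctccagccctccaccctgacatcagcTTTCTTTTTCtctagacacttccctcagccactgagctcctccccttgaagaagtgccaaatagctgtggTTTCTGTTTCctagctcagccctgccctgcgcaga
Lgals3bp promoter (GRCm38.p6, chr11:118401910-118402209, minus strand): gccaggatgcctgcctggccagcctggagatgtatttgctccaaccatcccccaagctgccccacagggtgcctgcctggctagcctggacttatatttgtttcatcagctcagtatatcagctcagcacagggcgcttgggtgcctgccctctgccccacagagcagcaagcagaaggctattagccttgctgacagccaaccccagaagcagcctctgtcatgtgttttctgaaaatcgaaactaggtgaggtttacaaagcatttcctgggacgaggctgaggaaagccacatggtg

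Lgals8, which encodes the tandem-repeat galectin-8, a sensor of damaged endosomes and lysosomes, had the smallest change of the 6 at 7 days. Lgals8 was listed at 12.9 and 13.5 RPKM in the controls, at 13.7 and 15.5 RPKM at 7 days, and at 11.4 and 12.5 RPKM at 28 days. The 3 groups did not overlap, with the 28 day libraries lowest and the 7 day libraries highest. The log2 change was 0.13 at 7 days (95% interval -0.13 to 0.40; limma adjusted p = 0.454) and lay at -0.03 after median ratio scaling. It was -0.15 at 28 days (95% interval -0.41 to 0.12; limma adjusted p = 0.487) and -0.28 at 28 against 7 days (95% interval -0.54 to -0.02; limma adjusted p = 0.206). Lgals8 passed in 0 of 15 alternatives in each comparison.

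**Figure D3:**
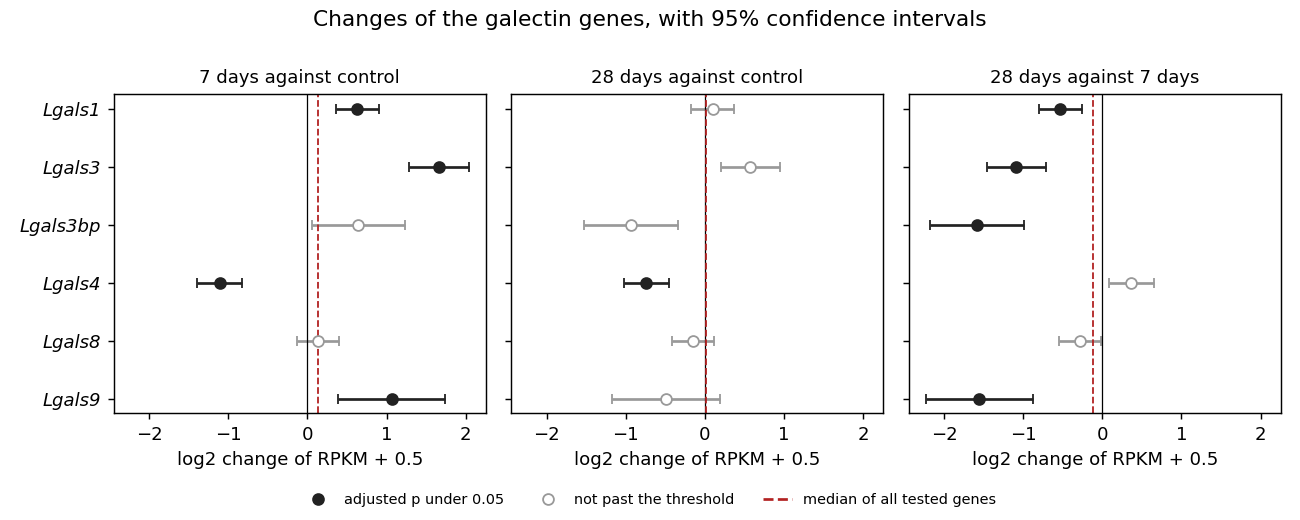
Change of each gene in log2(RPKM + 0.5) (horizontal axes) in the 3 comparisons, with 95% confidence intervals from limma. Filled points passed at an adjusted p under 0.05, open points did not, and the dashed line is the median of all 11096 tested genes. Lgals4 is the only called gene left of 0 at 7 days, and Lgals1, Lgals3, Lgals3bp and Lgals9 are called left of 0 at 28 against 7 days.

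Set side by side, the order of the genes by level changed with infusion. In the controls it ran Lgals1, Lgals4, Lgals3bp, Lgals9, Lgals8 and Lgals3, and neighbouring genes did not overlap in the 2 libraries. At 7 days Lgals3bp and Lgals9 stood above Lgals4, and these 2 genes overlapped each other. At 28 days the order was that of the controls again, with Lgals3bp and Lgals9 overlapping. The 5 galectins summed to 275 and 246 RPKM in the controls, 353 and 349 RPKM at 7 days, and 224 and 257 RPKM at 28 days. Lgals4 made up 22.7% and 23.3% of this sum in the controls, 8.49% and 7.22% at 7 days, and 15.1% and 14.6% at 28 days. Lgals1 made up 61.1% and 62.4% in the controls and between 67.4% and 74.3% in the infused hearts.

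**Figure D4:**
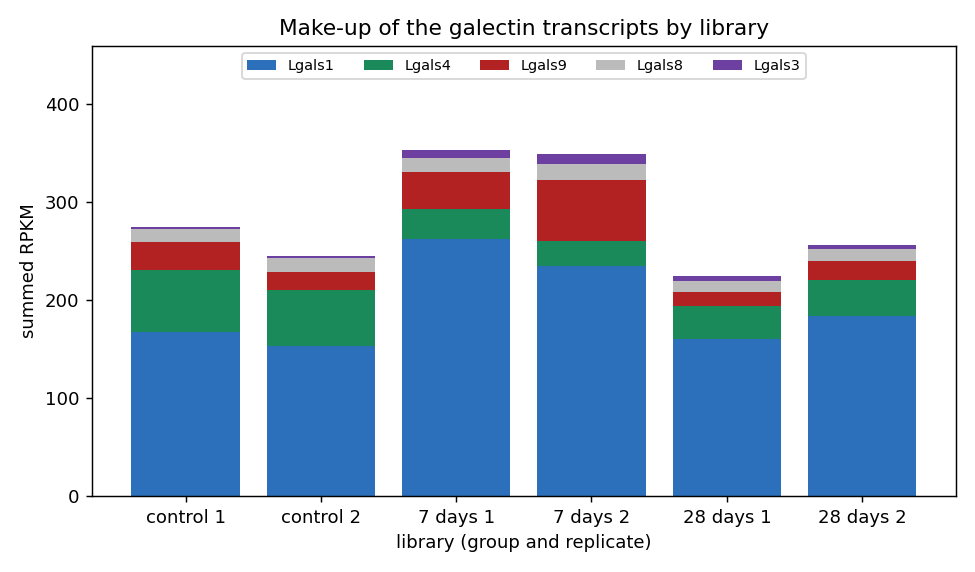
RPKM of the 5 galectins stacked (vertical axis, from 0) in each library (horizontal axis). The Lgals4 segment is 22.7% and 23.3% of the sum in the controls, 8.49% and 7.22% at 7 days and 15.1% and 14.6% at 28 days, and Lgals1 is the tallest segment throughout.

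Other genes of the family were barely detected. Lgals2, Lgals7 and Lgals12 reached at most 0.619, 0.173 and 0.176 RPKM in a library, and Lgals6 and Grifin were listed at 0 throughout. The galectin-related gene Lgalsl, listed under the older symbol 1110067D22Rik, averaged 9.25 ± 0.0577 RPKM at 7 days and 7.88 ± 0.185 RPKM in the controls (SD, n = 2 each) and did not pass (log2 change 0.22; limma adjusted p = 0.183).

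Glycoproteins that galectins bind were also higher at 7 days. Of 26 tested partners, 17 were higher and 0 lower by limma at 7 days, with a median change of 0.66. Without adjustment 21 were higher and 0 lower. Of all tested genes, 13.2% were higher and 2.27% lower at 7 days by limma, and 4.26% were lower at 28 against 7 days. The shares without adjustment at 7 days were 26.5% higher and 5.66% lower. The 17 became 6 without control replicate 1, 8 without control replicate 2 and 6 without 7 day replicate 2. At 28 days 2 were higher than in the controls, the fibronectin receptor subunit Itga5 and the transferrin receptor Tfrc, and Itga5 did not pass there without control replicate 1 (limma adjusted p = 0.0725) or control replicate 2 (limma adjusted p = 0.0502). At 28 against 7 days 6 were lower, and between 1 and 5 with a library left out. Fn1, which encodes fibronectin, averaged 25.0 ± 5.40 RPKM at 7 days and 4.39 ± 0.429 RPKM in the controls (SD, n = 2 each; log2 change 2.37; limma adjusted p = 0.000483). Trem2, a macrophage receptor that galectin-3 binds, rose by 1.62 and the vascular adhesion gene Mcam by 1.54 on the log2 scale. Trem2, Ptprc and Itgam are leukocyte genes, so this list overlaps in kind with the macrophage markers, and Itgam stands in both lists.

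Among 26 tested enzymes that build or mask galectin ligands, 4 were higher and 0 lower at 7 days by limma, where 13.2% of all tested genes were higher. Without adjustment 9 were higher and 0 lower, where 26.5% of all tested genes were higher and 5.66% lower. The median change of the list was 0.24. The 4 became 0 without control replicate 1 (5 without adjustment), 1 without control replicate 2, 2 without 7 day replicate 1 and 0 without 7 day replicate 2 (6 without adjustment). The 4 were Mgat2, which adds a branch to N-glycans, and the galactosyltransferases B4galt1, B4galt5 and B4galt6. B4galt1, which adds the galactose that galectins recognise, averaged 28.0 ± 1.29 RPKM at 7 days and 16.6 ± 1.2 RPKM in the controls (SD, n = 2 each; log2 change 0.74; limma adjusted p = 0.00701). It was also higher at 28 days, at 24.5 ± 2.07 RPKM (log2 change 0.55; limma adjusted p = 0.0417), as the only enzyme of the list to pass there. Its 7 day call ended when control replicate 1 (limma adjusted p = 0.0767) or 7 day replicate 2 (limma adjusted p = 0.0594) was left out, and its 28 day call without any library but 28 day replicate 2 (limma adjusted p from 0.0714 to 0.314). B4galt5 and B4galt6 rose by 0.78 and 0.51 at 7 days.

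Galectin-3 and galectin-8 mark broken vesicles in the damaged lysosome response and autophagy. Of 22 tested genes of this list, 4 were higher and 0 lower at 7 days by limma, where 13.2% of all tested genes were higher. Without adjustment 7 were higher and 1 lower, where 26.5% of all tested genes were higher and 5.66% lower. The 4 became 0 without control replicate 1, 2 without control replicate 2, and 0 without either 7 day library, where between 5 and 7 were higher without adjustment. Trim16, a ubiquitin ligase that works with galectin-3 in human cells, averaged 2.83 ± 0.262 RPKM at 7 days and 1.39 ± 0.452 RPKM in the controls (SD, n = 2 each; log2 change 0.84; limma adjusted p = 0.0316). The ubiquitin-conjugating enzyme gene Ube2ql1 and the autophagy enzyme gene Atg7 rose by 0.80 and 0.61, and Gabarap, which encodes an autophagosome protein, by 0.38. Ube2ql1 was also higher at 28 days (log2 change 0.89; limma adjusted p = 0.0177), but not without control replicate 1 (limma adjusted p = 0.163) or control replicate 2 (limma adjusted p = 0.0633). Calcoco2, the adaptor that galectin-8 recruits in human cells, was listed at 0 in all 6 libraries. The median change of the list was 0.08 at 7 days, under the 0.14 of all tested genes.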

How the data were processed

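The authors deposited 1 RPKM value per gene and library, per the file headers. DESeq2, HTSeq, TopHat2 2.0.12 and Bowtie 0.12.9, beside the builds mm8 and mm9, stand in the submitters' processing notes without roles. The sources used here name neither the annotation nor the tool that made the RPKM. The table holds no read totals, so only relative depth was estimated. Coordinates are those of the RefSeq promoters.

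Genes averaging 1 RPKM or more were log2 transformed after adding 0.5 and fitted in limma 3.58.1 (R 4.3.3) over all 6 libraries with group means and a variance trend, at 3 residual degrees of freedom. Tests were two-sided. With 2 libraries against 2, an exact permutation test could not go below p = 0.333, so none was run. The fit was tested on simulated data with independent normal noise, in which 200 of the 11096 genes were changed. It recovered between 92% and 93% of 2-fold changes, with 20, 12 and 14 false calls in the 3 comparisons. Real libraries need not follow such noise, and far more genes were called at 7 days, so these rates may not carry over. Figures used Python 3.11.15 and matplotlib 3.10.9.

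The members and lists were chosen with earlier results of these data known. Every member is named whatever its result. From each other list described the genes named are the 3 tested genes with the largest absolute change at 7 days, and from profiles the 3 nearest to each member that passed, without predicted genes. Other genes named (such as Mgat2, Itga5, Tfrc, Gabarap, Ptprc, Itgam, Vil1 and Cdh17) were chosen after their values were seen. A gene that the rule takes from the interferon list is not reported here.

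Alternatives were other pseudocounts, filters and scalings, a fit with no trend, a fit of the compared groups alone, blocking on the replicate number, a threshold of fold and unadjusted p, and leaving out single libraries, which was extended to the gene and marker lists after seeing the data.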

Additional observations from a re-analysis of the deposited data

Results flagged for a closer look

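The change against the controls differed between 7 and 28 days for 4 members, by the limma test of 28 against 7 days, which is the difference between both changes. The difference was -0.53 on the log2 scale for Lgals1 (limma adjusted p = 0.0489), -1.08 for Lgals3 (limma adjusted p = 0.0163), -1.58 for Lgals3bp (limma adjusted p = 0.0212) and -1.56 for Lgals9 (limma adjusted p = 0.0321). Both 28 day libraries lay under both 7 day libraries for each of the 4 genes, as for 41.2% of all tested genes. Both changes use the same 2 controls. All 4 calls were lost without 7 day replicate 1 and without 7 day replicate 2, where 28 day libraries were set against a lone 7 day library. No group held the 4 libraries needed to look for outlying libraries.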

How the results depend on the processing

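Calls of the 6 members at 7 days numbered 4, and between 2 and 5 with a library left out. At 28 days 1 member was called, 0 without a filter on low values (3 at an unadjusted p under 0.05), 2 with an unadjusted p and a fold of 1.5, and between 0 and 2 with a library left out. At 28 against 7 days 4 were called, 0 without a filter (6 at an unadjusted p under 0.05), 2 with median ratio scaling, 2 with quantile normalization, 2 with the replicate block, and between 0 and 4 with a library left out. A library left alone in its group was taken to vary as the others do. Lgals3 and Lgals4 kept their 7 day calls in all 15 alternatives. The change of Lgals8 at 7 days was -0.0298 with median ratio scaling and -0.0291 with quantile normalization, and that of Lgals1 at 28 days was -0.0174 with quantile normalization, against 0.13 and 0.10 as deposited. No other change of a member reversed.

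Over all genes, 1713 were called at 7 days, 445 with an unadjusted p and a fold of 2, and between 392 and 2252 with a library left out. At 28 days 489 were called, 61 without a filter, 234 with only the 2 groups compared, 808 with an unadjusted p and a fold of 1.5, and between 33 and 384 with a library left out. At 28 against 7 days 518 were called, 264 without a filter, 295 with a mean RPKM of at least 5, 276 with median ratio scaling, 261 with quantile normalization, 287 with only the 2 groups compared, 277 with an unadjusted p and a fold of 2, and between 27 and 689 with a library left out. The cause of these shifts was not tested, except that more genes are tested without a filter and fewer libraries are fitted where some are left out.

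The deviations of same-numbered replicates correlated at 0.149 between 7 days and control over 11096 genes. For the pairs with 28 days the correlations were -0.02 and -0.01. The labels name no litter, batch or day shared by same-numbered replicates, and these correlations cannot show whether they shared any. The replicate block gave 1496, 359 and 354 calls over all genes in the 3 comparisons, and lost the calls of Lgals9 at 7 days and of Lgals1 and Lgals9 at 28 against 7 days.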

Other observations

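Markers of other cells of the heart were also compared at 7 days, where limma called 13.2% of all tested genes higher and 2.27% lower. Of 8 endothelial markers 3 were higher and 0 lower, but 1 when either control library or 7 day replicate 2 was left out. Kdr, the main receptor of vascular endothelial growth factor, averaged 37.0 ± 2.66 RPKM at 7 days and 17.8 ± 1.49 RPKM in the controls (SD, n = 2 each; log2 change 1.04; limma adjusted p = 0.00234). Emcn rose by 0.67 on the log2 scale, and Cdh5 changed by 0.58 without passing (limma adjusted p = 0.0999). Of 7 smooth muscle and pericyte markers 2 were higher, Tagln by 1.35 and Acta2 by 1.04, while Cnn1 changed by 1.31 without passing (limma adjusted p = 0.0665). Tagln did not pass without any of the control or 7 day libraries, and Acta2 passed only without 7 day replicate 2 among these 4. The neutrophil genes S100a9 and S100a8 encode the subunits of calprotectin. They changed by 2.48 and 1.66 at 7 days without passing (limma adjusted p = 0.077 and 0.114), and both were higher at 28 days. Not both 28 day calls were kept once any control or 7 day library was left out. The fit pools the spread of all groups, and at 28 days S100a9 averaged 39.8 ± 34.8 RPKM and S100a8 33.6 ± 25.7 RPKM (SD, n = 2 each). Whether S100a9 and S100a8 passed at 7 days depended on having both 28 day libraries in the fit. Of the cardiomyocyte markers the largest changes were 0.49 for Actc1, -0.39 for Pln and -0.25 for Tnni3, and of the atrial markers -2.14 for Sln, -1.81 for Myl7 and 1.77 for Nppa, none of which passed in limma (adjusted p between 0.0528 and 0.289). At an unadjusted p under 0.05, 1 cardiomyocyte marker was higher and 1 lower, and 0 of 4 tested atrial markers passed. Of all tested genes, 26.5% were higher and 5.66% lower at that threshold. Without control replicate 1, 3 atrial markers were lower at 7 days by limma, and without control replicate 2, 1 was higher. T cell markers summed to between 1.77 and 2.87 RPKM and B cell markers to between 0.704 and 1.3 RPKM per library, and none averaged 1 RPKM.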
